A study of Mus musculus with 33 samples.

Results

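The Eph receptors are receptor tyrosine kinases that bind ephrins on neighbouring cells. They were followed here through every assay of a study of the m6A reader YTHDF2 in mouse hippocampal neural stem cells: the A-class receptors Epha2, Epha3, Epha4, Epha5 and Epha7 and the B-class receptors Ephb1, Ephb2, Ephb3, Ephb4 and Ephb6. These are 10 of the 26621 gene symbols in each count table. They were chosen by symbol with their measured counts across genotype, hour and pull-down already known, so the values below describe these libraries, and the p-values are not independent support for a pattern among the receptors. All 10 passed the filter on low counts in all 3 assays, and no other Eph receptor did. Epha1 had 0 to 13 counts per RNA-seq library and passed in the m6A assay alone, and Epha6, Epha8 and Epha10 had 0 to 5 counts per RNA-seq library and passed in none.

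A-class receptors mainly bind ephrin-A ligands, which a lipid tethers to the membrane, and B-class receptors mainly bind ephrin-B ligands, which span it; Epha4 binds both kinds. Contact between cells starts signalling in both directions, and in the developing brain this guides axons, separates cell groups and acts on neural progenitors. YTHDF2 binds mRNAs that carry N6-methyladenosine (m6A) and is known for speeding their decay.

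The cells were neural stem cells from the hippocampus of mice at postnatal day 0.5, grown with bFGF and EGF. RNA-seq groups were labelled Nestin-cKO (Ythdf2 conditional knockout) or Nestin-WT and had been given 5 µM actinomycin D, which blocks transcription, for 0, 2 or 4 h, with 3 libraries per genotype and hour. The m6A pull-down and its input, and the YTHDF2 pull-down, the IgG pull-down and their input, came from untreated WT cells, with 3 libraries each. Nestin is active in neural progenitors, so the label points to deletion in that lineage; the labels do not say whether replicates came from separate animals, and p-values then measure only the spread between these libraries. These are bulk cultures, in which fewer cells of a type and less RNA per cell cannot be told apart.

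Libraries held 10257329 to 21353383 counts in RNA-seq, 12892222 to 28334300 in the m6A assay and 8419106 to 23097887 in the YTHDF2 assay. Before the results, 2 conflicts with the labels need stating. Ythdf2 itself was at 735.9 to 3117 CPM (counts scaled to the size of each library with TMM factors) in libraries labelled cKO at 0 h, against 218.7 to 258.2 CPM in WT, a log2 difference of 2.74 ± 0.37 (SE; edgeR quasi-likelihood test, adjusted p = 0.00027) in the direction opposite to the label; every genotype result below is therefore about libraries labelled cKO, and its direction rests on that label. The conflict was larger later. Mean Ythdf2 was 1200 CPM in libraries labelled cKO against 74.6 CPM in WT at 2 h, and 1400 against 70.6 CPM at 4 h. In the YTHDF2 assay the titles and the descriptions exchange input and YTHDF2; the descriptions, which match the column names of the tables, were used, and the titles would turn round every difference between those groups. Summed TPM over 12 neural stem cell markers was 10520 to 17600 in libraries labelled cKO at 0 h and 25220 to 26900 in WT, all 12 being detected in both. The 13 fibroblast markers summed to 51.2 to 94.6 TPM in cKO-labelled libraries and 27.4 to 42.5 TPM in WT, and the 8 neuronal markers to 42.7 to 63.9 TPM in cKO-labelled libraries and 147 to 203 TPM in WT. The 8 astrocyte markers summed to 225 to 505 TPM in cKO-labelled libraries at 0 h and 508 to 765 TPM in WT. The 10 oligodendrocyte markers overlapped, at 195 to 441 TPM in cKO-labelled libraries and 340 to 392 TPM in WT. The 6 endothelial markers summed to 0.212 to 1.23 TPM in cKO-labelled libraries at 0 h and 0.53 to 1.27 TPM in WT. In both groups 4 of the 6 had counts, and Cdh5 and Cldn5 had none. The part of these marker levels in the receptor differences was not tested.

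The promoters of 3 receptors are shown because their RNAs carried the largest rise and fall between genotypes at 0 h (Epha2 and Epha3) and the deepest fall under actinomycin D (Ephb3). Sequences are RefSeq's for GRCm38.p6, 300 bases from 250 before to 50 after the start that its promoter table uses, at chr4:141300971-141301270, plus strand, chr16:63864126-63864425, minus strand and chr16:21204545-21204844, plus strand. Capitals mark GGGCGG, the GC box bound by SP factors, and CAGAC, a core of SMAD-binding elements, each on either strand; in Ephb3 one of each overlaps. For Ephb3 the annotated gene start, position 21204620, lies inside the window and not at its 250-base mark.
Epha2: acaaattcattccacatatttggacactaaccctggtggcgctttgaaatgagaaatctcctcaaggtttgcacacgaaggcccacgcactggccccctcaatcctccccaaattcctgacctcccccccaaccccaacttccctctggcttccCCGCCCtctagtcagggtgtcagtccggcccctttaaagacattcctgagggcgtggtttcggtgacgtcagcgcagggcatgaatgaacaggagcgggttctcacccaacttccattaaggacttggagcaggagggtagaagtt
Epha3: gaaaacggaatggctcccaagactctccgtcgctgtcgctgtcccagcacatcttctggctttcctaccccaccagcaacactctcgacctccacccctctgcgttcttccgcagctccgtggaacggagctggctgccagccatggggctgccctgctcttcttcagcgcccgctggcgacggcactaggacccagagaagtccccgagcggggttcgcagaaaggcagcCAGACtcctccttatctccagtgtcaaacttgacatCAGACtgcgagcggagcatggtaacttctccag
Ephb3: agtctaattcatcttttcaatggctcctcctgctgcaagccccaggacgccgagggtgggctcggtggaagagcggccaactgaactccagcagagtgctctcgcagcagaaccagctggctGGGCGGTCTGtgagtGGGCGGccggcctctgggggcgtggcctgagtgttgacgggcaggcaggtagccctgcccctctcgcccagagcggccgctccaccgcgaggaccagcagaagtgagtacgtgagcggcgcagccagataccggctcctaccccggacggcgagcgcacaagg
The table holds 11 promoters for the 10 receptors, Epha7 having 2. The Epha7 windows, starting at 28812881 and 28812895, overlap and share the same GGGCGG and CAGAC matches, which are counted in both. GGGCGG was in 8 of the 11, against 35.7% of all 32851 promoters, and CAGAC in 7 of the 11, against 49.6%. Neither the AP-1 letters TGANTCA nor the E-box CACGTG occurred in any of the 11, against 7.81% and 7.15% of all promoters. These matches describe letters in a window and say nothing of binding.

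In GRCm38.p6 the A-class genes lie at chr4:141301221-141329384 (Epha2), chr16:63543532-63864175 (Epha3), chr1:77367182-77515107 (Epha4), chr5:84054761-84417818 (Epha5) and chr4:28813066-28967503 (Epha7). The B-class genes lie at chr9:101922128-102354693 (Ephb1), chr4:136647536-136836326 (Ephb2), chr16:21204620-21223309 (Ephb3), chr5:137350109-137374522 (Ephb4) and chr6:41603834-41620509 (Ephb6).

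In WT cells at 0 h the receptors ranged from 0.135 to 11.9 TPM, the deposited RNA level per transcript length. Epha5, a receptor known for hippocampal and retinal axon guidance, was highest at 11.9 ± 0.58 TPM (SD, n = 3) and stood clear of the next. Ephb1 at 3.55 ± 0.32 TPM and Epha3 at 2.93 ± 0.54 TPM followed and overlapped each other. Epha4 (1.95 TPM), Epha7 (1.64), Ephb3 (1.36), Ephb2 (1.3) and Ephb6 (1.2), the last a receptor without kinase activity, formed a run in which each neighbour in the order overlapped the next. Epha2 at 0.39 ± 0.14 TPM and Ephb4 at 0.135 ± 0.059 TPM were lowest, each apart from its neighbour above. In libraries labelled cKO at 0 h the order was different: Epha7 led at 10.6 ± 9.2 TPM, Epha5 followed at 5.18 ± 2.5 TPM and Epha2 at 4.07 ± 2.5 TPM, while Epha3 was last at 0.479 ± 0.35 TPM. All neighbours overlapped in that order.

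**Figure D1:**
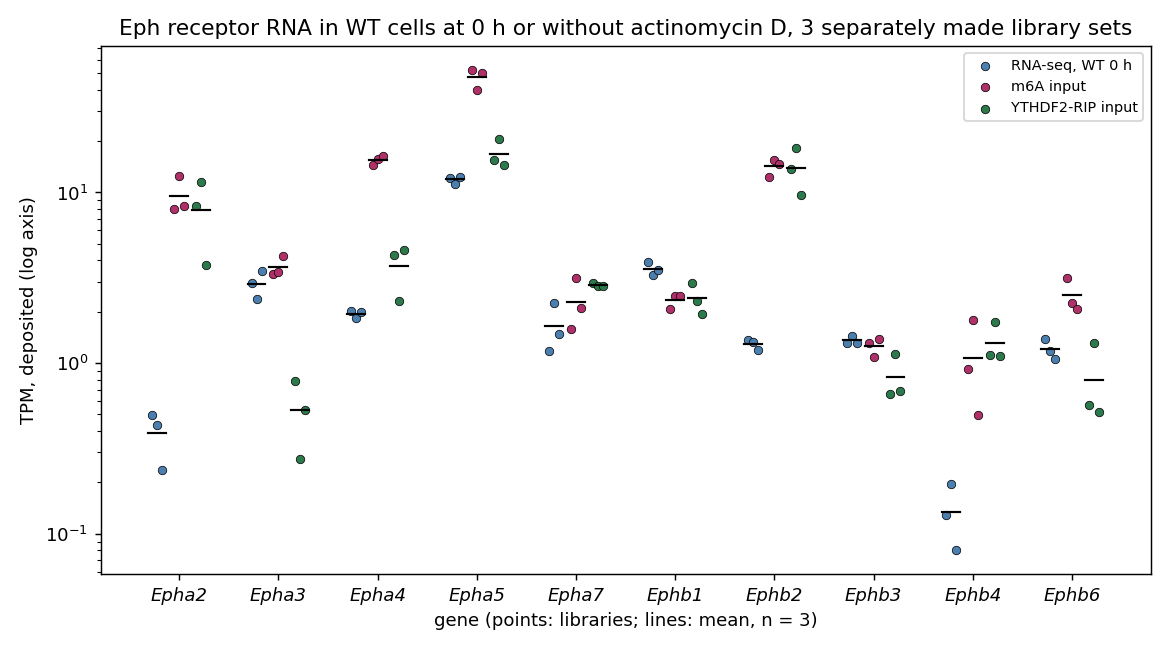
Deposited TPM (log axis) of the 10 receptors in WT libraries of the 3 library sets: RNA-seq at 0 h, m6A input and YTHDF2-assay input. Points are libraries and lines are means of 3; Epha2, Epha4, Epha5, Ephb2 and Ephb4 sit higher in both input sets than in RNA-seq, and the sets were normalized separately.

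The inputs of the pull-downs gave another order, although they too are untreated WT cells. Epha2 was at 7.95, 12.5 and 8.31 TPM in the m6A inputs and at 8.34, 11.6 and 3.78 TPM in the YTHDF2-assay inputs, against 0.498, 0.436 and 0.237 TPM in WT RNA-seq at 0 h. Ephb2, a receptor that also acts at synapses, was at 14.2 ± 1.7 and 13.9 ± 4.3 TPM in the m6A and YTHDF2-assay inputs, against 1.3 ± 0.094 TPM in RNA-seq. Epha3 differed between the input sets themselves, with 3.66 ± 0.5 TPM in m6A inputs and 0.53 ± 0.26 TPM in YTHDF2-assay inputs. RNA-seq used a SMART-seq2 protocol and the pull-downs a modified SMART-seq3 protocol, and the 3 tables were scaled separately, so no test was made across them; protocol and culture cannot be told apart here. Epha4 and Epha5 too were higher in every input library of either set than in any WT RNA-seq library at 0 h. Marker sums also differed. The 12 neural stem cell markers summed to 13990 to 15570 TPM in m6A inputs and 10360 to 12090 TPM in YTHDF2-assay inputs, against 25220 to 26900 TPM in WT RNA-seq at 0 h. The 8 astrocyte markers summed to 849 to 1903 and 2091 to 2357 TPM in the same inputs, against 508 to 765 TPM. The 10 oligodendrocyte markers summed to 268 to 507 TPM in m6A inputs, which overlaps RNA-seq at 340.1 to 391.9 TPM, and to 646.9 to 2720 TPM in YTHDF2-assay inputs. The part of these marker levels in the receptor values was not tested.

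The first comparison asks how the receptors differed between libraries labelled cKO and WT before transcription was blocked. At 0 h, 3 of the 10 receptors were higher in libraries labelled cKO, 1 was lower and 6 did not pass (edgeR quasi-likelihood test, Benjamini-Hochberg adjusted p under 0.05 over 14029 genes). Over all genes tested 17.6% were called, 7.71% higher and 9.89% lower. Epha2, one of the 3, passed the filter on low counts only through libraries labelled cKO, so the count of higher receptors is not read against these shares. The receptors' median log2 difference was -0.15, against -0.01 for all genes tested. That median includes Epha2 and Ephb4, which were both tested only through libraries labelled cKO, so it is not read against all genes either.

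Epha2, best known from epithelial cells and from tumours, had 3.81, 7.88 and 12.7 CPM in libraries labelled cKO, against 0.944, 0.843 and 0.474 CPM in WT. The groups did not overlap, and the log2 difference was 3.43 ± 0.79 (SE; adjusted p = 0.00941). Epha7, an ephrin-A receptor expressed by cortical progenitors, had 14.2, 32.1 and 80.5 CPM in cKO-labelled libraries, against 4.52, 8.85 and 6.05 CPM in WT. The lowest library labelled cKO was above the highest WT library, and replicate 3 was far above the others; the difference was 2.71 ± 0.54 (adjusted p = 0.00411). Ephb2 had 5.88, 5.71 and 8.36 CPM in cKO-labelled libraries and 3.17, 3.12 and 2.91 CPM in WT, again without overlap, at 1.12 ± 0.29 (adjusted p = 0.0184).

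Epha3, a receptor of ephrin-A5 in particular, went the other way. Libraries labelled cKO held 0.497, 1.88 and 0.637 CPM, against 5.66, 4.63 and 7 CPM in WT. Every library labelled cKO was below every WT library, and the log2 difference was -2.50 ± 0.40 (adjusted p = 0.000949). Epha5 had 33.9, 13.1 and 16.6 CPM in cKO-labelled libraries and 45.6, 43.1 and 49 CPM in WT; the groups did not overlap, but the difference of -1.12 ± 0.40 missed the threshold (adjusted p = 0.0623).

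Ephb4, the receptor that pairs with ephrin-B2 in blood vessels, rested on few reads. It had 8, 54 and 33 counts in libraries labelled cKO at 0 h, against 4, 5 and 3 counts in WT, a difference of 3.09 ± 1.07 (adjusted p = 0.0547). It entered the test only through libraries labelled cKO: 8 of those 9 and 0 of the 9 WT libraries reached the filter's floor of 0.615 CPM. Epha2 reached that floor in 8 of 9 libraries labelled cKO and 2 of 9 WT libraries, so both had to be higher in the cKO-labelled group to be tested at all. Epha4, Ephb1, Ephb3 and Ephb6 gave differences of 0.28, -0.59, -1.04 and -0.87, with adjusted p of 0.42, 0.267, 0.303 and 0.2. Ephb1 and Ephb3 were lower in all 3 libraries labelled cKO than in any WT library, while Epha4 and Ephb6 overlapped. With DESeq2, Epha5 (-1.08, adjusted p = 0.0368) and Ephb4 (3.15, adjusted p = 0.0161) were also called.

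Leaving out single libraries at 0 h ended the calls of Ephb2 (without cKO replicate 3, adjusted p = 0.0687, or without WT replicate 1, 2 or 3, 0.0552 to 0.0696) and of Epha2 (without WT replicate 3, 0.0518), and without WT replicate 3 only 2 receptors were called. Leaving out a WT replicate at all 3 hours left 1 or 2 called, and without WT replicate 3 the adjusted p of Epha7 was 0.0563; Epha3 was called under all 33 alternatives.

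**Figure D2:**
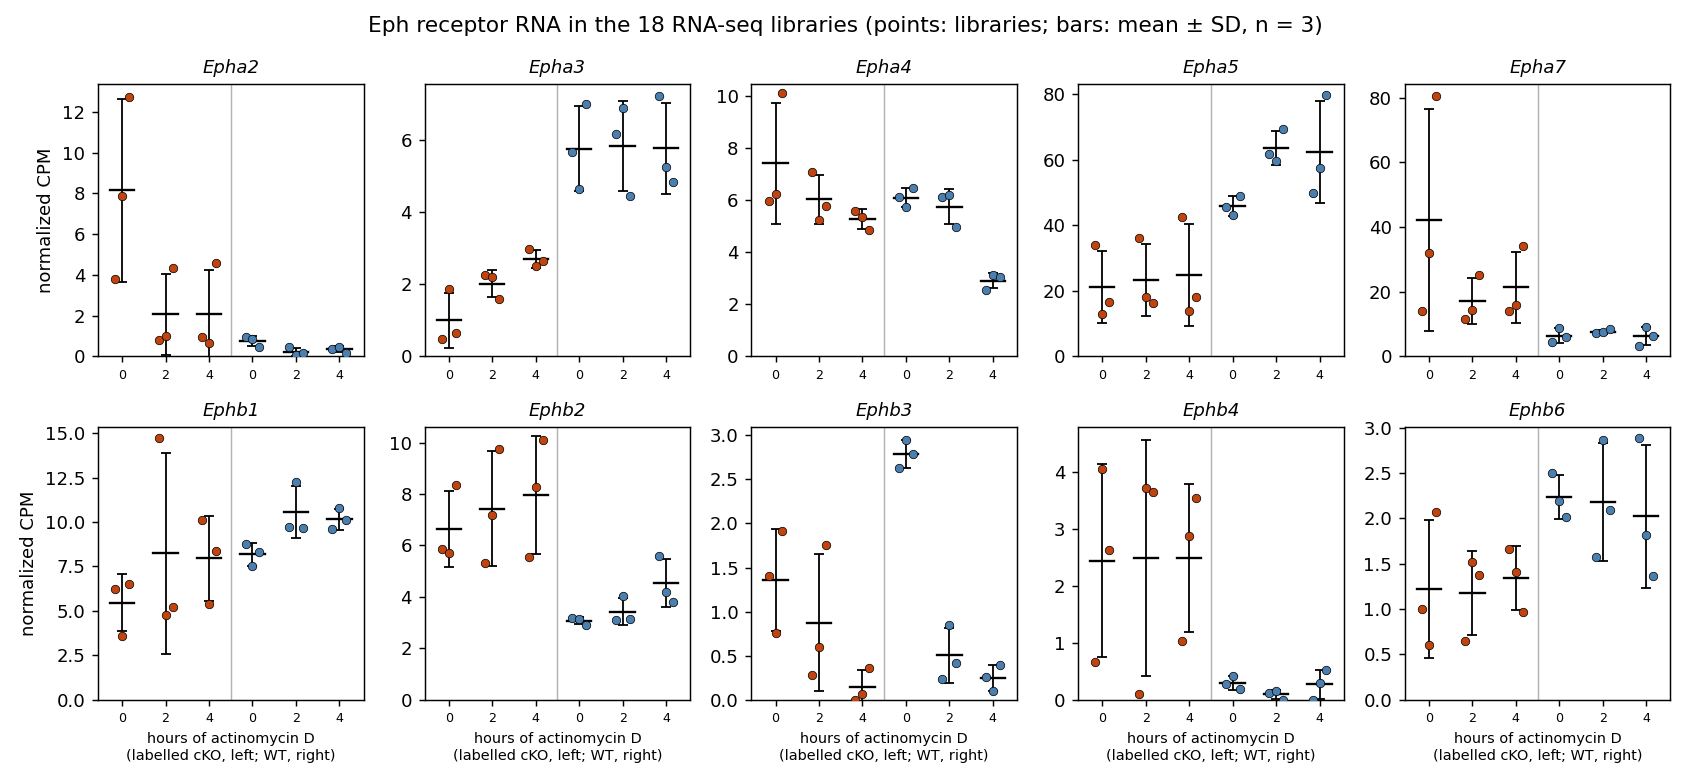
Normalized CPM of each receptor by hour of actinomycin D, with libraries labelled cKO on the left of each panel and WT on the right. Points are libraries, lines are means and bars are SD (n = 3); Epha2, Epha7, Ephb2 and Ephb4 are mostly higher, and Epha3 and Epha5 lower, in libraries labelled cKO, while Ephb3 falls to near 0 by 4 h in both.

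The same genotype comparison after 2 and 4 h of transcription block asks whether these differences were still there. At 2 h, 3 receptors were higher and 2 lower in libraries labelled cKO, against 17.1% of all genes called (8.52% higher, 8.54% lower). At 4 h, 4 were higher and 2 lower, against 20.2% of all genes called (11% higher, 9.11% lower). Epha2 and Ephb4 are among those higher at both hours, and both were tested only because of libraries labelled cKO, so the same limit applies here. With ribosomal protein genes as the reference, 3.63%, 3.78% and 4.83% of all genes were called higher at 0, 2 and 4 h, of 20.8%, 19.2% and 19.4% called. Median log2 differences of the receptors were 0.43 at 2 h and 0.23 at 4 h, beside 0.05 and 0.08 for all genes. These medians include Epha2 and Ephb4, so they too are not read against all genes.

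Epha2 stayed higher in libraries labelled cKO, with 0.828, 1.03 and 4.35 CPM at 2 h against 0.466, 0.0774 and 0.157 CPM in WT. At 4 h it had 0.973, 0.64 and 4.57 CPM in cKO-labelled libraries, against 0.377, 0.477 and 0.194 CPM in WT. At both hours replicate 3 was far above the other libraries labelled cKO, and the groups did not overlap. The log2 differences were 3.02 ± 0.88 (adjusted p = 0.028) at 2 h and 2.57 ± 0.86 (adjusted p = 0.0431) at 4 h. Without replicate 3 labelled cKO at the same hour they were 1.91 (adjusted p = 0.191) and 1.23 (adjusted p = 0.371).

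Epha7 was above WT in every library labelled cKO at both hours, with 14, 15.9 and 34.1 CPM at 4 h against 3.39, 8.97 and 6.21 CPM in WT. The difference at 4 h was 1.80 ± 0.53 (adjusted p = 0.0251) and that at 2 h 1.15 ± 0.52 (adjusted p = 0.126). Epha4 was at 5.61, 5.38 and 4.87 CPM in libraries labelled cKO at 4 h, against 2.57, 3.15 and 3.04 CPM in WT. That separation was not seen at 0 or 2 h, and the difference at 4 h was 0.86 ± 0.25 (adjusted p = 0.0236).

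Ephb2 had 5.33, 7.19 and 9.77 CPM in libraries labelled cKO at 2 h, against 3.09, 4.02 and 3.14 CPM in WT, at 1.12 ± 0.29 (adjusted p = 0.0168). At 4 h the groups touched, and the difference of 0.81 ± 0.29 missed the threshold (adjusted p = 0.0547). Ephb4 at 2 h had 2, 69 and 48 counts in libraries labelled cKO, against 2, 2 and 0 counts in WT. Replicate 1 labelled cKO was at the WT level, so the groups overlapped, although the fitted difference of 4.76 was called (adjusted p = 0.0168). The summed counts gave a ratio of 30.4 per total count, with an exact 95% interval from 11.6 to 114 that covers counting error only. At 4 h Ephb4 had 18, 45 and 59 counts in cKO-labelled libraries and 0, 3 and 8 in WT (adjusted p = 0.0459).

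Epha3 and Epha5 were lower in libraries labelled cKO at both hours, with no overlap. Epha3 had 2.25, 2.22 and 1.6 CPM in cKO-labelled libraries at 2 h, against 6.18, 6.89 and 4.45 CPM in WT, and the difference was -1.51 ± 0.37 (adjusted p = 0.0122). At 4 h it had 2.98, 2.5 and 2.64 CPM against 7.22, 5.25 and 4.85 CPM in WT, at -1.09 ± 0.36 (adjusted p = 0.0426). Epha5 had 42.6, 13.9 and 18.1 CPM in libraries labelled cKO at 4 h, with replicate 1 nearer to WT than the others, against 50, 57.6 and 79.7 CPM in WT. Its differences were -1.44 ± 0.40 at 2 h (adjusted p = 0.0238) and -1.33 ± 0.40 at 4 h (adjusted p = 0.0287). Ephb1, Ephb3 and Ephb6 were called at neither hour.

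Calls at 2 h depended on single libraries of that hour. The call of Epha2 ended without cKO 3, WT 2 or WT 3 (adjusted p 0.0962 to 0.191). That of Epha3 ended without cKO 3 or WT 2 (0.0585 and 0.0508), and that of Epha5 without cKO 2, cKO 3 or any WT library (0.0536 to 0.111). The call of Ephb2 ended without cKO 3, WT 1 or WT 3 (0.0705 to 0.095), and that of Ephb4 without cKO 2, cKO 3, WT 1 or WT 3 (0.055 to 0.0777). The number called was 3 without cKO 2, 0 without cKO 3, 2 without WT 1 or WT 2 and 1 without WT 3. Ephb1 was called (-1.09, adjusted p = 0.0161) without cKO 1.

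At 4 h the same held, and dropping a library of another hour also ended calls. Epha3 was not called when any single WT library was dropped (9 fits), nor without cKO 2 h replicate 2, 4 h replicate 2 or 4 h replicate 3 (0.0513 to 0.142), and Ephb4 not when any single WT library was dropped, nor without cKO 0 h replicate 2 or 3, 2 h replicate 2 or 4 h replicate 2 or 3 (0.0505 to 0.153). Epha2 was not called without cKO 0 h replicate 2, cKO 4 h replicate 3, WT 2 h replicate 3 or any WT library at 0 or 4 h (0.0517 to 0.371). Of the 4 h libraries, Epha4 needed cKO 1 and 2 and all WT (0.0519 to 0.108), Epha5 needed cKO 2 and 3 and WT 3 (0.0951 to 0.122), and Epha7 needed cKO 3, WT 1 and WT 3 (0.0857 to 0.14). The number called was 3 without any WT 0 h library or WT 2 h replicate 3, 2 without cKO 4 h replicate 2 or WT 4 h replicate 2, 1 without cKO 4 h replicate 3 or WT 4 h replicate 1, and 0 without WT 4 h replicate 3. Leaving out WT replicate 1, 2 or 3 at all hours left 0, 0 and 1 called at 2 h, and 0 each time at 4 h. Leaving out cKO replicate 2 or 3 at all hours left 2 and 3 called at 2 h, and 1 and 2 at 4 h. Without cKO replicate 1 at all hours, Epha7 and Ephb1 were also called at 2 h and Ephb2 at 4 h.

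**Figure D3:**
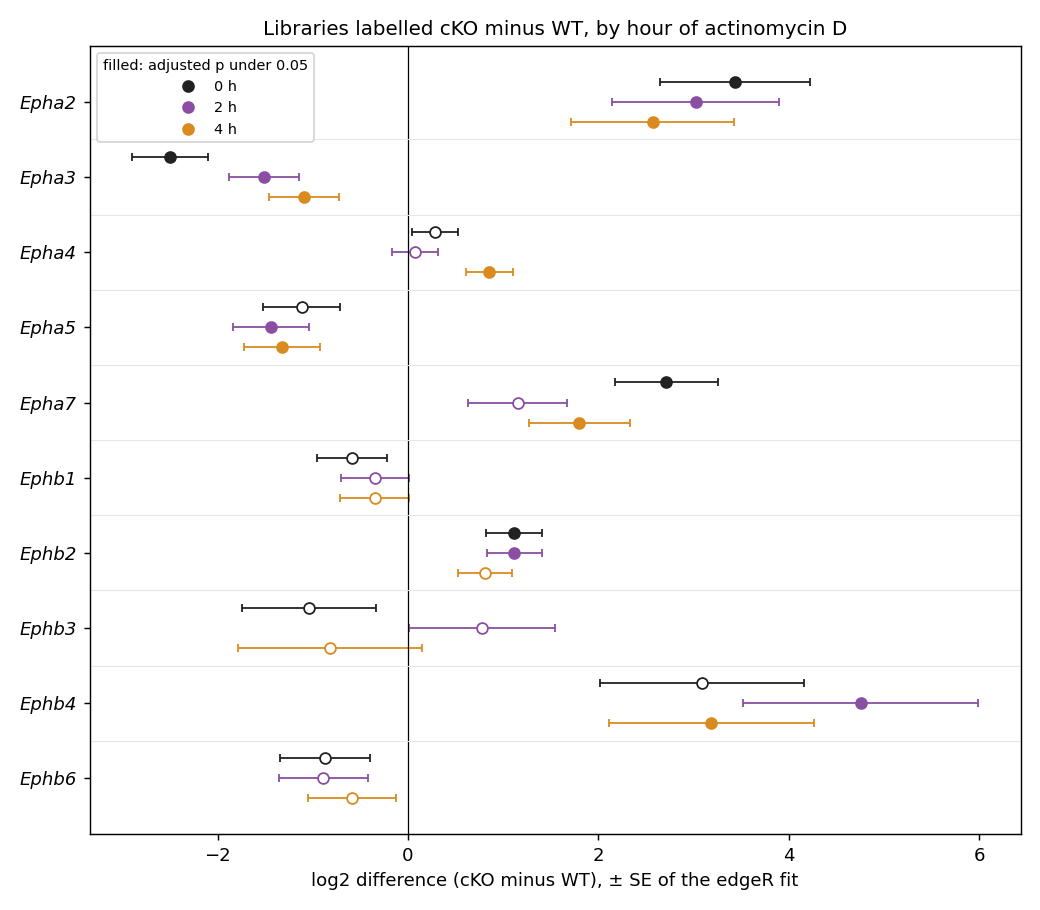
Log2 difference of each receptor, libraries labelled cKO minus WT, at 0, 2 and 4 h of actinomycin D, with the SE of the fit; filled points passed adjusted p under 0.05 over all genes tested. Epha2 lies between 2.57 and 3.43 at the 3 hours and Epha3 between -2.50 and -1.09.

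The actinomycin D series asks how each receptor RNA changed once transcription was blocked. CPM are shares of the RNA left in the library, so a value that holds its level has kept pace with the other transcripts. In libraries labelled cKO, 0 receptors passed at 2 h with edgeR (3 at unadjusted p under 0.05, 1 with DESeq2), beside 12.1% of all genes called (2.21% higher, 9.85% lower). At 4 h, 1 was higher and 2 lower, beside 30.1% of all genes called (12.1% higher, 18% lower). In WT, 1 receptor was lower and 0 higher at 2 h, beside 17.4% of all genes called (3.63% higher, 13.7% lower). At 4 h, 2 were lower and 0 higher in WT, beside 39.9% of all genes called (15.6% higher, 24.2% lower). With ribosomal protein genes as the reference, 0.2% of all genes were called higher at 4 h in libraries labelled cKO, of 39.9% called, and 0.321% in WT, of 43.1% called.

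Ephb3, a receptor of ephrin-B ligands, lost most of its RNA in both genotypes. Libraries labelled cKO held 1.41, 0.751 and 1.91 CPM at 0 h, 0.276, 0.594 and 1.76 CPM at 2 h and 0, 0.064 and 0.36 CPM at 4 h. WT libraries held 2.63, 2.95 and 2.79 CPM at 0 h, 0.233, 0.851 and 0.419 CPM at 2 h and 0.251, 0.0955 and 0.388 CPM at 4 h. By 4 h neither genotype overlapped its own 0 h libraries. The log2 change at 4 h was -3.19 ± 0.87 in libraries labelled cKO (adjusted p = 0.0104) and -3.41 ± 0.82 in WT (adjusted p = 0.00312). At 2 h it was -0.68 ± 0.73 in cKO-labelled libraries (adjusted p = 0.601) and -2.49 ± 0.75 in WT (adjusted p = 0.0294), the WT call ending without WT 0 h replicate 1, 2 or 3 or WT 2 h replicate 1 or 3 (0.0646 to 0.136). The 4 h libraries held 7 counts in all in the cKO-labelled group and 11 in WT, which limits any finer statement. Ephb3 reached the filter's floor of 0.615 CPM in 5 of 9 libraries labelled cKO and 4 of 9 WT libraries, and in no 4 h library. It was therefore tested only through the earlier hours, and the counts of lower receptors that include it are not read against the shares of all genes.

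Epha4 in WT had 6.14, 5.73 and 6.46 CPM at 0 h, 6.12, 6.19 and 4.97 CPM at 2 h and 2.57, 3.15 and 3.04 CPM at 4 h. It fell between 0 and 4 h without overlap, a change of -1.07 ± 0.25 (adjusted p = 0.0026). In libraries labelled cKO it changed by -0.49 ± 0.24 (adjusted p = 0.133), which was called when scaled by library size alone (-0.75, adjusted p = 0.0385) or to ribosomal protein genes (-1.29, adjusted p = 0.00193).

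Epha3 and Epha2 moved in libraries labelled cKO. Epha3 had 0.497, 1.88 and 0.637 CPM at 0 h, 2.25, 2.22 and 1.6 CPM at 2 h and 2.98, 2.5 and 2.64 CPM at 4 h; the 4 h libraries were all above those at 0 h, and the change was 1.41 ± 0.40 (adjusted p = 0.0131). In WT it changed by 0.00 ± 0.35 between 0 and 4 h (adjusted p = 0.999). Epha2 in libraries labelled cKO changed by -1.98 ± 0.72 at 4 h (adjusted p = 0.0451), with replicate 3 at 4 h above replicate 1 at 0 h, so the hours overlapped. The rise of Epha3 was not called when scaled to ribosomal protein genes (0.71, adjusted p = 0.174), nor without cKO 0 h replicate 1 (0.0564) or 3 (0.0502). The call of Epha2 ended without any of 11 of the 18 libraries, cKO 0 h replicates 2 and 3, cKO 4 h replicates 1 and 2, WT 2 h replicate 3 and all WT libraries at 0 and 4 h (0.0527 to 0.16). Without cKO 0 h replicate 3, 1 receptor was called at 4 h, and at 2 h 1 was called without cKO 0 h replicate 1 or 2, cKO 2 h replicate 3 or cKO 4 h replicate 3.

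Same-numbered libraries of a genotype deviated together across hours, and a replicate block added calls. In libraries labelled cKO it called Epha2 (-2.25, adjusted p = 0.000972) and Epha7 (-1.08, 0.00619) at 2 h and Epha7 (-0.81, 0.0171) at 4 h. In WT it called Epha2 (-1.62, 0.0417) and Epha5 (0.47, 0.0242) at 2 h, and Epha5 (0.42, 0.0261) and Ephb2 (0.56, 0.0456) at 4 h. With the block, 2 and 4 receptors were called at 2 and 4 h in libraries labelled cKO, and 3 and 4 in WT. Over all genes the block called 25.6% and 44.2% in libraries labelled cKO, and 33.8% and 52.9% in WT. Ephb1, Ephb4 and Ephb6 were called at neither hour in either genotype.

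Whether the genotypes differed in their course over the 3 hours was tested as a difference in log2 slope. None of the 10 receptors passed with edgeR (1 at unadjusted p under 0.05, 0 with DESeq2), beside 0.00713% of all genes. The largest was Epha3, at 0.34 ± 0.13 per hour (edgeR adjusted p = 0.453), and the other 9 lay between -0.23 for Epha7 and 0.16 for Ephb3 per hour, so a change called in one genotype alone is not shown to be particular to it. That fit left out the pairing of same-numbered libraries. With a replicate block in edgeR 0 receptors were called, beside 0.634% of all genes, and Epha3 was at 0.37 per hour (adjusted p = 0.179).

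The m6A pull-down from WT cells asks which receptor RNAs were enriched with the m6A antibody. None of the 10 passed with edgeR (1 at unadjusted p under 0.05, 1 with DESeq2), beside 20.3% of all 14167 genes tested, 6.06% higher and 14.3% lower. Their median log2 difference was 0.10, against 0.01 for all genes.

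Ephb2 came nearest, with 40.2, 56.6 and 41.9 CPM in the pull-down against 30.6, 38.4 and 36.6 CPM in the input. Every pull-down library was above every input library, and the difference was 0.39 ± 0.15 (adjusted p = 0.0914; 0.0305 with DESeq2). Epha5, the most abundant, had 248.6, 195.5 and 246.2 CPM in the pull-down and 211.2, 161.4 and 203.7 CPM in the input. It was higher in the pull-down within each replicate number while the groups overlapped, at 0.26 ± 0.12 (adjusted p = 0.181). The other 8 lay between -0.27 for Ephb3 and 0.27 for Epha7 and their groups overlapped. Scaling matters for this assay: with ribosomal protein genes as the reference the median of all genes was 1.54 and 93.6% of all genes were called higher, and all 10 receptors were among them, at 1.28 to 1.93. The descriptions give a pull-down and its input the same sample number without saying whether they came from 1 culture. With that number as a replicate block, Epha5 (0.26, adjusted p = 8.92e-05) and Ephb2 (0.39, adjusted p = 0.000773) were called, beside 37.9% of all genes.

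The YTHDF2 pull-down asks which receptor RNAs came down with YTHDF2 antibody, with IgG as the control pull-down. In the YTHDF2 pull-down 5 receptors were higher than in input and 5 did not pass, beside 48.1% of all 14255 genes called (30.7% higher, 17.5% lower). Against IgG, 5 were higher and 5 did not pass, beside 14.6% of all genes called (14.3% higher, 0.33% lower). Both comparisons use the same YTHDF2 libraries. The receptors' median log2 difference was 0.62 over input and 0.46 over IgG, beside 0.23 and -0.08 for all genes.

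Epha3 had 2.7, 2.71 and 4.6 CPM in the YTHDF2 pull-down, 0.85, 0.541 and 0.663 CPM in IgG and 1.78, 0.572 and 1.26 CPM in input. The pull-down was above both other groups in every library, by 2.28 ± 0.47 over IgG (adjusted p = 0.00521) and 1.46 ± 0.44 over input (adjusted p = 0.0173). Ephb2 had 50.7, 66.1 and 57.9 CPM in the YTHDF2 pull-down, 20.8, 26.5 and 19.6 CPM in IgG and 37.3, 45.4 and 27.6 CPM in input. It was higher by 1.38 ± 0.21 over IgG (adjusted p = 0.000598) and 0.66 ± 0.20 over input (adjusted p = 0.0195), again without overlap.

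Ephb1, like Ephb2 a receptor of ephrin-B ligands, had 12.6, 9.4 and 8.64 CPM in the YTHDF2 pull-down, 4.07, 2.85 and 3.98 CPM in IgG and 7.85, 5.61 and 5.42 CPM in input. It was higher by 1.50 ± 0.27 over IgG (adjusted p = 0.00179) and 0.69 ± 0.26 over input (adjusted p = 0.0412). Epha7 had 22.8, 32.4 and 27.7 CPM in the YTHDF2 pull-down, 12.4, 18.5 and 18.2 CPM in IgG and 13.4, 11.8 and 13.5 CPM in input. Its differences were 0.76 ± 0.21 over IgG (adjusted p = 0.0258) and 1.10 ± 0.21 over input (adjusted p = 0.00117). Epha4 was at 32.2, 21.6 and 22.6 CPM in the pull-down, 13.7, 8.22 and 14.1 CPM in IgG and 15.4, 7.61 and 17.5 CPM in input, higher by 1.09 ± 0.31 over IgG (adjusted p = 0.0358) and 0.92 ± 0.31 over input (adjusted p = 0.0294).

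IgG itself differed from input for some receptors. Ephb1 (-0.81 ± 0.27, adjusted p = 0.0328) and Ephb2 (-0.72 ± 0.21, adjusted p = 0.0174) were lower in IgG than in input, and the other 8 did not pass (between -0.82 for Epha3 and 0.80 for Ephb4), beside 37.1% of all genes called (20.2% higher, 17% lower). Neither was called with library size alone (adjusted p 0.0662 and 0.0562), and Ephb2 was at 0.14 with ribosomal protein genes as the reference. Library size alone, the ribosomal reference, limma on log2(TPM + 1) and limma on log2(TPM + 0.1) each called 2 receptors higher in IgG than in input. In that order they called 23.8%, 27.4%, 28.4% and 29.1% of all genes higher. Epha5 had 75.5, 123.5 and 132 CPM in the YTHDF2 pull-down and 76.8, 121.6 and 137.5 CPM in IgG, beside 68.1, 84.1 and 67.5 CPM in input. The pull-downs thus held nearly equal amounts, at -0.02 ± 0.25 over IgG (adjusted p = 0.965), while each stood above input within every replicate number. Ephb4 was above input in all 3 IgG libraries, at 0.80 ± 0.30 (adjusted p = 0.0557), with 4.47 CPM on average in the YTHDF2 pull-down, 5.59 CPM in IgG and 3.2 CPM in input. Epha2, Ephb3 and Ephb6 overlapped in all comparisons of this assay.

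**Figure D4:**
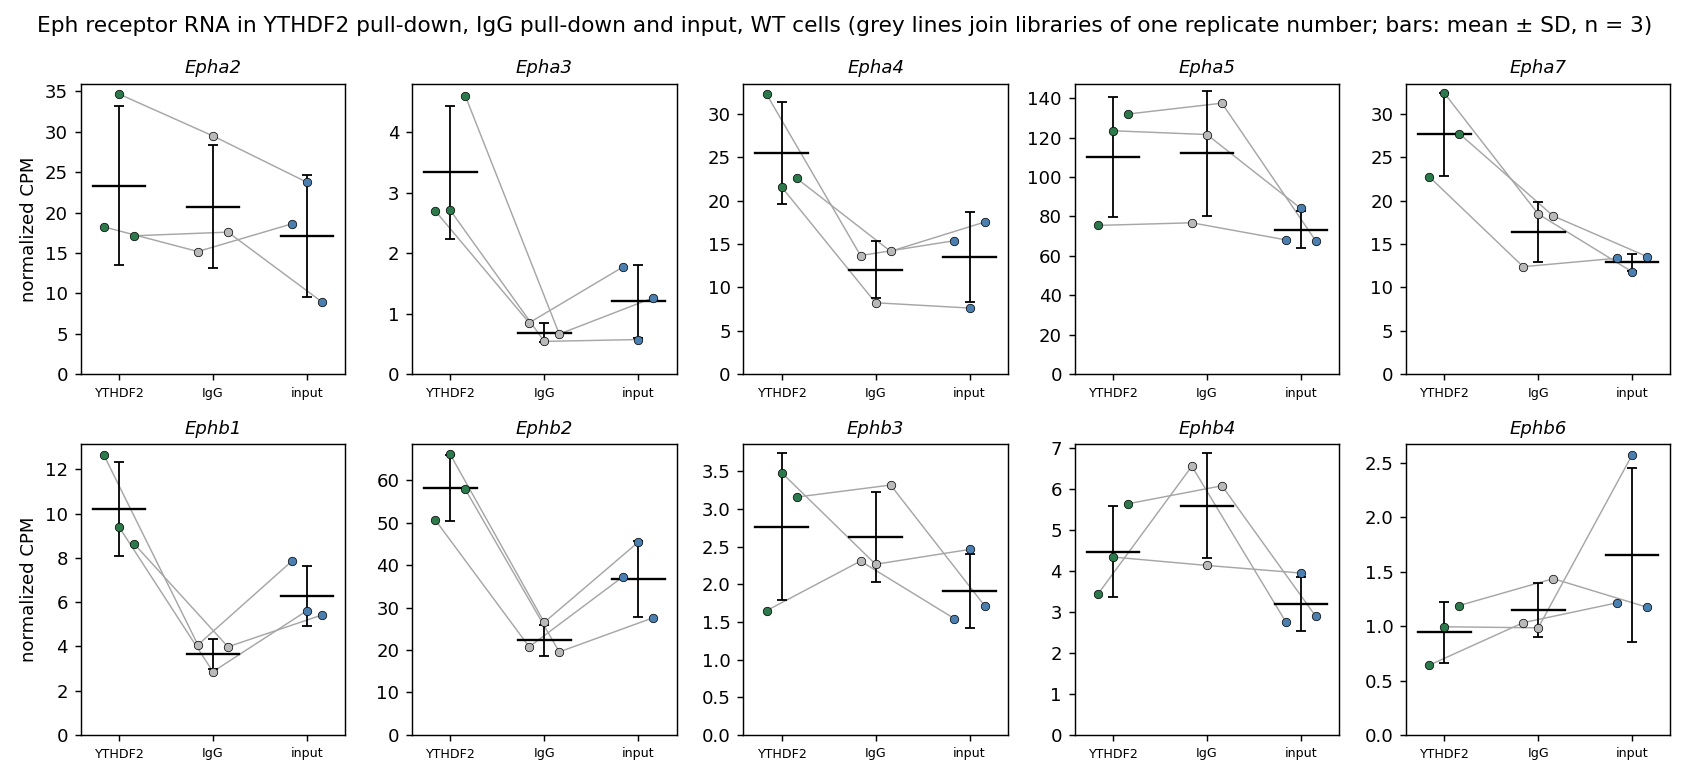
Normalized CPM of each receptor in the YTHDF2 pull-down, the IgG pull-down and the input of WT cells, with lines joining libraries of one replicate number and bars for SD (n = 3). Epha3, Epha4, Epha7, Ephb1 and Ephb2 are highest in all 3 YTHDF2 libraries, while Epha5 is about as high in IgG.

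Same-numbered libraries deviated together here too, and with a replicate block Epha2 (0.43, adjusted p = 0.0373) and Epha5 (0.54, adjusted p = 0.00209) were also called over input, and Epha5 (0.56, adjusted p = 0.00197) and Ephb4 (0.78, adjusted p = 0.015) were called higher in IgG than in input. With DESeq2's size factors only Epha3 and Epha7 were called over input, with those factors in edgeR Epha4 and Epha7 were no longer called over IgG, and scaled to ribosomal protein genes the calls over IgG were Epha3 and Ephb1. Of 19 alternatives, 8 called Epha7 and 10 called Epha4 over IgG, while 18 called Epha3, 19 Ephb1 and 18 Ephb2. Over all genes the block called 63.7% over input and 55.1% for IgG over input, and the ribosomal reference called 5.41% over IgG. Leaving out 1 library ended calls over input for Epha3 (input 2, YTHDF2 3), Epha4 (input 2, YTHDF2 1), Ephb1 (IgG 3, input 2 or 3, YTHDF2 1 or 2) and Ephb2 (input 1 or 3, YTHDF2 2), with adjusted p from 0.0518 to 0.15, and over IgG for Epha4 (any IgG or YTHDF2 library) and Epha7 (IgG 1 or 3, YTHDF2 2 or 3), with 0.0505 to 0.133. The number called over input was 2 without input 2 and 3 without input 3 or YTHDF2 2, and over IgG it was 3 without IgG 1, IgG 3, YTHDF2 2 or YTHDF2 3. The lower IgG values of Ephb1 were not called without IgG 2, IgG 3 or input 1, nor those of Ephb2 without IgG 3 or input 2 (0.0606 to 0.127), leaving 0 called without IgG 3 and 1 without input 1 or input 2.

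**Figure D5:**
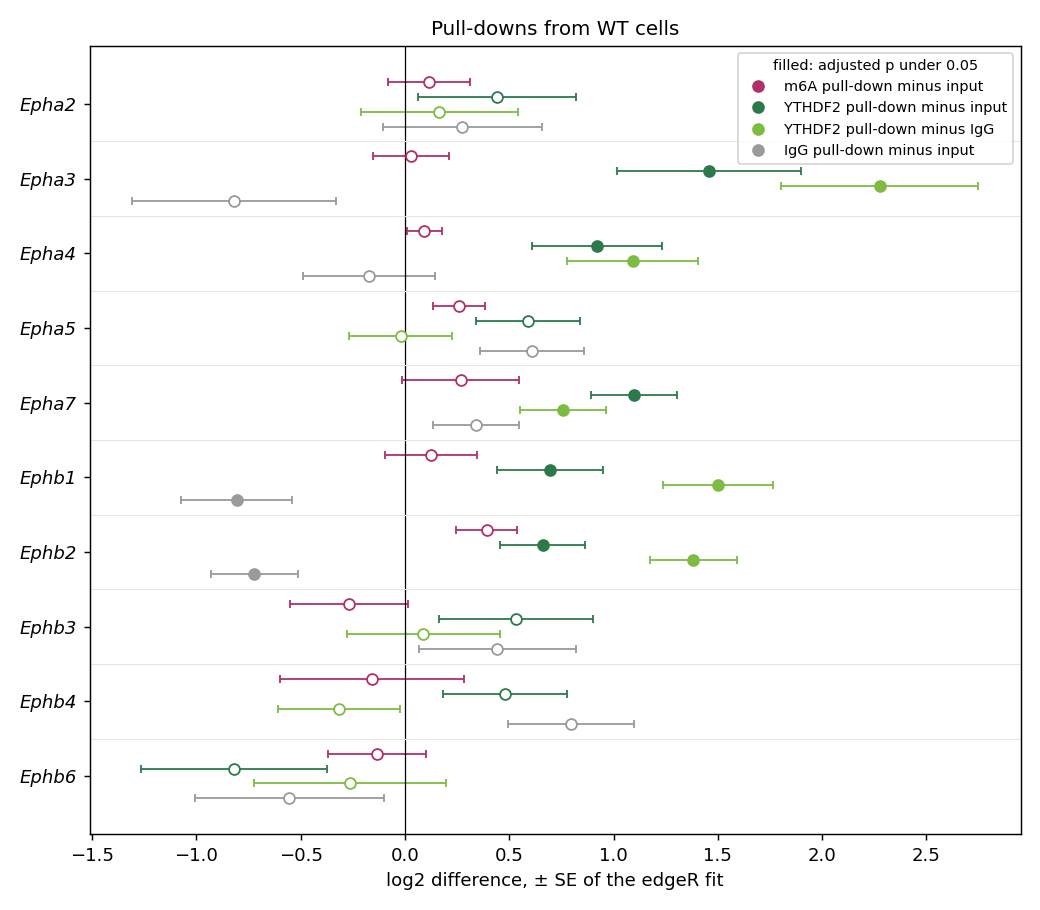
Log2 difference of each receptor for the m6A pull-down over input, the YTHDF2 pull-down over input and over IgG, and IgG over input, with the SE of the fit; filled points passed adjusted p under 0.05 over all genes tested. The m6A differences lie between -0.27 and 0.39, and those of YTHDF2 over IgG reach 2.28 for Epha3.

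Set side by side, the receptors with YTHDF2 pull-down above both IgG and input included genes of either genotype direction at 0 h: Epha7 and Ephb2 were higher and Epha3 lower in libraries labelled cKO, while Epha4 and Ephb1 were not called. With edgeR, TMM factors and no block, none of these 5 was called in the m6A pull-down. Of the 5, DESeq2 and the block called Ephb2, and library size alone and both limma fits called Ephb2 and Epha4. The ribosomal reference called all 10 receptors.

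The ephrin ligands were described by the same fits, 7 of 8 being tested (all but Efna3). At 0 h, 2 were higher, 1 lower and 4 not called in libraries labelled cKO, beside 17.6% of all genes called. Efna5, the ligand of Epha3 and other A-class receptors, had 1.66, 20.9 and 15.4 CPM in cKO-labelled libraries, against 0.674, 1.18 and 1.54 CPM in WT, and replicate 1 was only just above WT. It was higher by 3.47 at 0 h (adjusted p = 0.0146), 3.42 at 2 h (adjusted p = 0.0153) and 2.75 at 4 h (adjusted p = 0.0281). Efnb2, the ligand of Ephb4, had 35.6, 23.9 and 20.2 CPM in libraries labelled cKO at 0 h, against 8.5, 7.41 and 7.47 CPM in WT, at 1.77 ± 0.48 (adjusted p = 0.0201). Efnb3 was lower in cKO-labelled libraries at 0 h (-1.15, adjusted p = 0.0479) and 4 h (-1.33, adjusted p = 0.0157), and Efnb1 was higher at 2 h (2.80, adjusted p = 0.0196). Efna4, higher at 4 h (3.62, adjusted p = 0.0204), had 33 counts in all in the libraries labelled cKO and 2 in WT, a ratio of 15.8 per total count with an exact 95% interval from 4.04 to 136 for counting error. Efna4 reached the filter's floor in 4 of 9 libraries labelled cKO and 0 of 9 WT libraries, and Efnb1 in 9 of 9 labelled cKO and 1 of 9 WT, so these too had to be higher in the cKO-labelled group to be tested.

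Under actinomycin D, Efna1 and Efnb2 fell by 4 h in both genotypes. Efna1 changed by -2.35 in libraries labelled cKO and -2.27 in WT, and Efnb2 by -2.35 in cKO-labelled libraries and -1.52 in WT. Efnb3 rose as a share of the RNA left in the library, by 1.07 in cKO-labelled libraries and 1.24 in WT. At 2 h Efnb2 had already changed by -1.90 in libraries labelled cKO and Efna1 by -2.03 in WT. In the m6A pull-down 0 of 7 ligands were called with edgeR (2 at unadjusted p under 0.05). Efna4 was higher in the YTHDF2 pull-down than in IgG (1.78, adjusted p = 0.00198) and input (1.18, adjusted p = 0.008), and Efna1 than in IgG (1.57, adjusted p = 0.0105).

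Among 36 genes known to act downstream of or beside Eph receptors and ephrins, 5 were higher and 2 lower in libraries labelled cKO at 0 h, beside 17.6% of all genes called, with a median difference of 0.04. Those with the smallest p were Inppl1 (1.97), the lipid phosphatase SHIP2 that binds Epha2, Grb10 (-4.29), an adaptor, Rhoa (0.80), the GTPase through which many Eph signals reach actin, and Nck2 (2.06), an adaptor. Grb10 reached the filter's floor in 2 of 9 libraries labelled cKO and 9 of 9 WT libraries, so it was tested through WT. Under actinomycin D 4 rose and 5 fell by 4 h in libraries labelled cKO and 7 rose and 9 fell in WT, beside 30.1% and 39.9% of all genes called. These too are changes in the share of the RNA left in the library. Nck1, an adaptor, changed by -3.53 in cKO-labelled libraries (adjusted p = 2.34e-08) and -3.48 in WT (adjusted p = 1.97e-08), and Vav3, a GTPase exchange factor, by -3.58 and -3.66. In the m6A pull-down 5 were higher and 6 lower, beside 20.3% of all genes called, and the smallest p belonged to Cdc42 (-0.90), Rhoa (-0.90), Sdcbp (-0.70) and Cfl1 (-0.65). Nck1 stood out in the YTHDF2 pull-down, at 2.53 over IgG (adjusted p = 1.94e-06) and 2.43 over input (adjusted p = 2.92e-06); 4 of the 35 partners tested were higher over IgG and 0 lower, beside 14.6% of all genes called, the others being the adaptors Crk (1.72), Crkl (1.66) and Nck2 (0.74).

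For the 3 receptors with the highest mean TPM over the 18 RNA-seq libraries, the genes with the most similar log2 CPM were, by Pearson correlation over those libraries, Car8 (0.984), Rnf180 (0.975) and Fyn (0.970) for Epha5, Tnfaip8 (0.929), Sdc2 (0.915) and Sat1 (0.912) for Epha7, and Bco2 (0.873), Cd200 (0.869) and 2900011O08Rik (0.860) for Ephb1. The libraries share genotype, hour and replicate number, so these values describe likeness over this design only.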

How the data were processed

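Mouse hippocampal neural stem cell libraries (18 RNA-seq, 6 m6A assay, 9 YTHDF2 assay) were analysed from the authors' tables of raw counts and of TPM per gene symbol. Per the submitters' processing notes, bcl2fastq 2.17.1.14, Trimmomatic 0.32 and STAR 2.5.2a were used with GRCm38; the sources used here name neither the read counter nor the annotation. Deposited counts were tested with edgeR 4.0.16 (R 4.3.3): filterByExpr at its default minimum count of 10, TMM factors, a quasi-likelihood fit of each assay's groups and Benjamini-Hochberg adjustment over all genes tested, two-sided. CPM are normalized by TMM; TPM are the authors' deposited values and were used for levels between genes, and in limma 3.58.1 on log2(TPM + 1) and log2(TPM + 0.1). Fits were checked on simulated counts. Alternatives were DESeq2 1.42.0, its size factors (RLE), library size alone, ribosomal protein genes as the reference, no filter, a replicate block, only the libraries compared, the titles' naming of the YTHDF2 assay, and leaving out each library and each replicate at all hours. A fit without a library is filtered and scaled anew and pools the spread of all groups.

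The receptors, gene lists and tests were chosen with earlier results of these data known. All 10 receptors are accounted for in every comparison, by value or within a range or count, and named are the ephrins called, partners from the 4 with the smallest p, and 3 genes of most similar pattern for 3 receptors. Replicate numbers come from the labels. Deviations from group means correlated at 0.126 to 0.719 between same-numbered libraries of a genotype and at 0.353 to 0.646 in the YTHDF2 assay. Those were taken as paired, but only the replicate block, an alternative, used the pairing. The main tests fitted groups alone, without it. The minimum correlation set for pairing was 0.1. Genotypes (-0.152 to 0.0743) were not taken as paired. Nor was the m6A assay, at 0.341, 0.427 and 0.0708 for replicates 1, 2 and 3, because of replicate 3 alone. The m6A descriptions number pull-down and input alike, so its main test may leave out a real pairing. The number of table columns left unused was 0. Counts without molecular identifiers carry counting error only in the intervals given.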

Additional observations from a re-analysis of the deposited data

How the results depend on the processing

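Counts below are receptors called out of 10. With limma on log2(TPM + 1) there were 3 between genotypes at 2 h and 2 at 4 h; with log2(TPM + 0.1) 3 at 4 h; with ribosomal protein genes as the reference 2 at 4 h. In WT at 2 h the replicate block gave 3 and the 6 libraries compared 2; in WT at 4 h the block gave 4. In libraries labelled cKO at 2 h, DESeq2, no filter and both limma fits gave 1 each, and the ribosomal reference and the block 2 each; at 4 h the 6 libraries alone gave 0. For m6A, DESeq2 gave 1, library size 3, both limma fits 4, the ribosomal reference 10 and the replicate block 2; over all genes library size called 34.7%, log2(TPM + 1) 56.5% and the ribosomal reference 93.9%. The pairing of these numbers was not shown; the block between genotypes, also unpaired, gave 6 at 0 h. YTHDF2 over input gave 2 with DESeq2, 2 with RLE factors, 2 with the 6 libraries and 9 with the ribosomal reference; over IgG RLE gave 3, the ribosomal reference 2 and the titles 2. IgG over input gave 4 with the block and 5 with the titles. Library size, the ribosomal reference and both limma fits gave 2 each there, all higher, in place of the 2 lower of the main fit. Leaving out libraries gave 1 to 6, 0 to 7 and 0 to 7 between genotypes at 0, 2 and 4 h, 0 to 1 and 1 to 4 over time in libraries labelled cKO, 0 to 1 and 1 to 3 in WT, 0 for the slope and m6A, 2 to 6 and 3 to 5 for YTHDF2 over input and IgG, and 0 to 3 for IgG over input.

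Where a receptor was called in either fit, directions turned under 2 settings; another 207 of the 3343 alternative values changed sign with no call in either. With the ribosomal reference, m6A values of Ephb3, Ephb4 and Ephb6 were 1.28, 1.36 and 1.40, and Ephb2 was 0.14 in IgG over input. With the titles, YTHDF2 over input was -1.46 for Epha3, -0.92 for Epha4, -1.10 for Epha7, -0.69 for Ephb1 and -0.66 for Ephb2, by construction, and Epha7 was -0.34 over IgG and -0.76 in IgG over input. Under the ribosomal reference the median of all genes was -0.73 in WT and -0.66 in libraries labelled cKO at 4 h. The cause of the other changes was not tested. Few counts limit Ephb3 after actinomycin D and Ephb4 and Epha2 in WT.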
